A study of Mus musculus with 19 samples.

Results

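Livers of TAA-treated and vehicle-treated mice were examined for 10 genes that carry interleukin-6 (IL-6), interleukin-1 (IL-1) and STAT3 signals in the acute phase response of the liver: *Il6ra*, *Il6st*, *Osmr*, *Stat3*, *Socs3*, *Cebpb*, *Cebpd*, *Il1r1*, *Il1rn* and *Nfkbia*. They were chosen by name as receptors and regulators of that response, from the 31053 genes in the table of counts, and all 10 have a row there. Male C57BL6J mice, 6 to 8 weeks old at the start, formed 3 groups. Vehicle-treated mice received PBS (5 libraries, with no vector named in their labels). The other mice received thioacetamide (TAA), a hepatotoxin that causes fibrosis, in rising doses for 12 weeks, and after 10 weeks were injected with serotype 8 AAV vectors. These vectors use the TBG promoter, which is active in hepatocytes, and carried eGFP in AAV-GFP-injected mice (7 libraries, called GFP livers) or miR-34b together with miR-34c in AAV-miR-34b/c-injected mice (7 libraries, called miR-34b/c livers). Livers were taken 4 weeks after injection. The design compares TAA together with a vector against vehicle, and the vectors within TAA-treated mice. With no vector named for vehicle mice, TAA and vector injection cannot be told apart in differences from vehicle. Polyadenylated RNA of whole liver was sequenced near its 3′ end, with 2214073 to 5208405 counts per library. Levels are given as CPM, counts scaled to the TMM-normalized size of each library, and differences as log2 fold changes from edgeR's quasi-likelihood test with Benjamini-Hochberg adjusted p over all genes tested, where a call is an adjusted p under 0.05. In whole liver, a lower level can come from fewer cells of a type or from less RNA per cell, and these cannot be told apart.

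IL-6 binds its receptor IL-6Rα, encoded by *Il6ra*, and the complex recruits gp130, encoded by *Il6st*, which oncostatin M also uses through *Osmr*. gp130 activates JAK kinases, which phosphorylate STAT3, and STAT3 induces acute phase genes together with its own inhibitor SOCS3. IL-1 binds the receptor encoded by *Il1r1*, which needs the accessory chain encoded by *Il1rap* and activates NF-kB, whereas the antagonist encoded by *Il1rn* occupies the receptor without a signal. NF-kB induces its own inhibitor IκBα, encoded by *Nfkbia*, and the transcription factors C/EBPβ and C/EBPδ act with STAT3 and NF-kB on promoters of acute phase genes in hepatocytes.

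Of the 19 libraries, 4 stood apart from their groups. The median coefficient of variation beyond counting noise against the other libraries of the group was 0.352 to 0.378 in GFP libraries 6 and 7 and miR-34b/c libraries 1 and 2, and 0.224 to 0.274 in the other 15. In addition, 6 pairs of libraries of the same group were close to each other, with a coefficient of 0.0813 to 0.170 against 0.214 to 0.473 in the other 46 pairs. The mitochondrial share of counts was 3.73% to 5.65% in vehicle libraries, 7.85% to 9.41% in GFP libraries 1 to 4 and 4.83% to 5.50% in GFP libraries 5 to 7. It was 3.71% and 3.73% in miR-34b/c libraries 1 and 2 and 8.21% to 10.8% in libraries 3 to 7, and its part in the results was not tested. Results of the 10 genes are given below without the 4 libraries, or with each close pair summed and counted as 1 sample, where this changed a call. Hepatocyte markers were present in every library, with a summed level of 32613 to 65589 CPM over 6 genes, and markers of T, B or NK cells summed to 0.489 to 6.40 CPM over 7 genes.

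Promoter sequences are shown for the 3 genes in which a searched motif was found, since STAT, C/EBP and NF-kB factors end the pathways that these genes belong to. Windows from 250 bases before to 50 bases after a RefSeq start site (GRCm38.p6) were held for 9 of the 10 genes, in 12 windows, and *Cebpd* had none. They were searched on both strands for TTCNNNGAA (STAT), TTGCNNAA (C/EBP) and, for NF-kB, GGGA, any base, TT, any base and CC in a row, which did not overlap each other in these windows. Each sequence runs 5′ to 3′ in the sense of its gene, with the match in capitals.
*Socs3*, minus strand, chr11:117969317-117969616: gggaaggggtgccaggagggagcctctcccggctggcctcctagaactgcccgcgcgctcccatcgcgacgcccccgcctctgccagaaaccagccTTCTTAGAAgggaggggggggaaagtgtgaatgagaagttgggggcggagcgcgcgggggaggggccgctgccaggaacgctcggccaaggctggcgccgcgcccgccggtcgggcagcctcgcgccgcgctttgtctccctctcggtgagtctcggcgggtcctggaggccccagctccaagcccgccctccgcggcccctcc
*Nfkbia*, minus strand, chr12:55492598-55492897: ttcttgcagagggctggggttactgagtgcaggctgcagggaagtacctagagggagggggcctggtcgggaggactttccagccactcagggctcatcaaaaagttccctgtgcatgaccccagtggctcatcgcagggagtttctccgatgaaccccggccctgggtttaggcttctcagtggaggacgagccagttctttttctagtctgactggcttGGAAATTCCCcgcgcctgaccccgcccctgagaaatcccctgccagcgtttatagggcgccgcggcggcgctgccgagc
*Il1r1*, plus strand, chr1:40224830-40225129: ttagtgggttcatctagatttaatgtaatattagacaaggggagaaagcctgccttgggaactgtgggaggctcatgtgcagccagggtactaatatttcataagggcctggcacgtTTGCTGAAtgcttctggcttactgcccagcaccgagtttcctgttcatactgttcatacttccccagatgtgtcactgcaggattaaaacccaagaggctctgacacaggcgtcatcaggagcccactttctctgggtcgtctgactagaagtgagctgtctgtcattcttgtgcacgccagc
The STAT match in *Socs3*, TTCTTAGAA, begins 154 bases before the start site of that window, which lies 180 bases upstream of the start of the coding transcript in GENCODE (position 117969186). The NF-kB match in *Nfkbia*, GGAAATTCCC, begins 29 bases before the start site and reads as the motif on the opposite strand. The C/EBP match in *Il1r1*, TTGCTGAA, begins 133 bases before the start site of the more upstream of its windows. Of 32851 RefSeq windows of the same length, 8.3% held the STAT motif, 10.8% the C/EBP motif and 1.2% the NF-kB motif. A match is a stretch of letters and was not tested as a binding site.

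**Figure D1:**
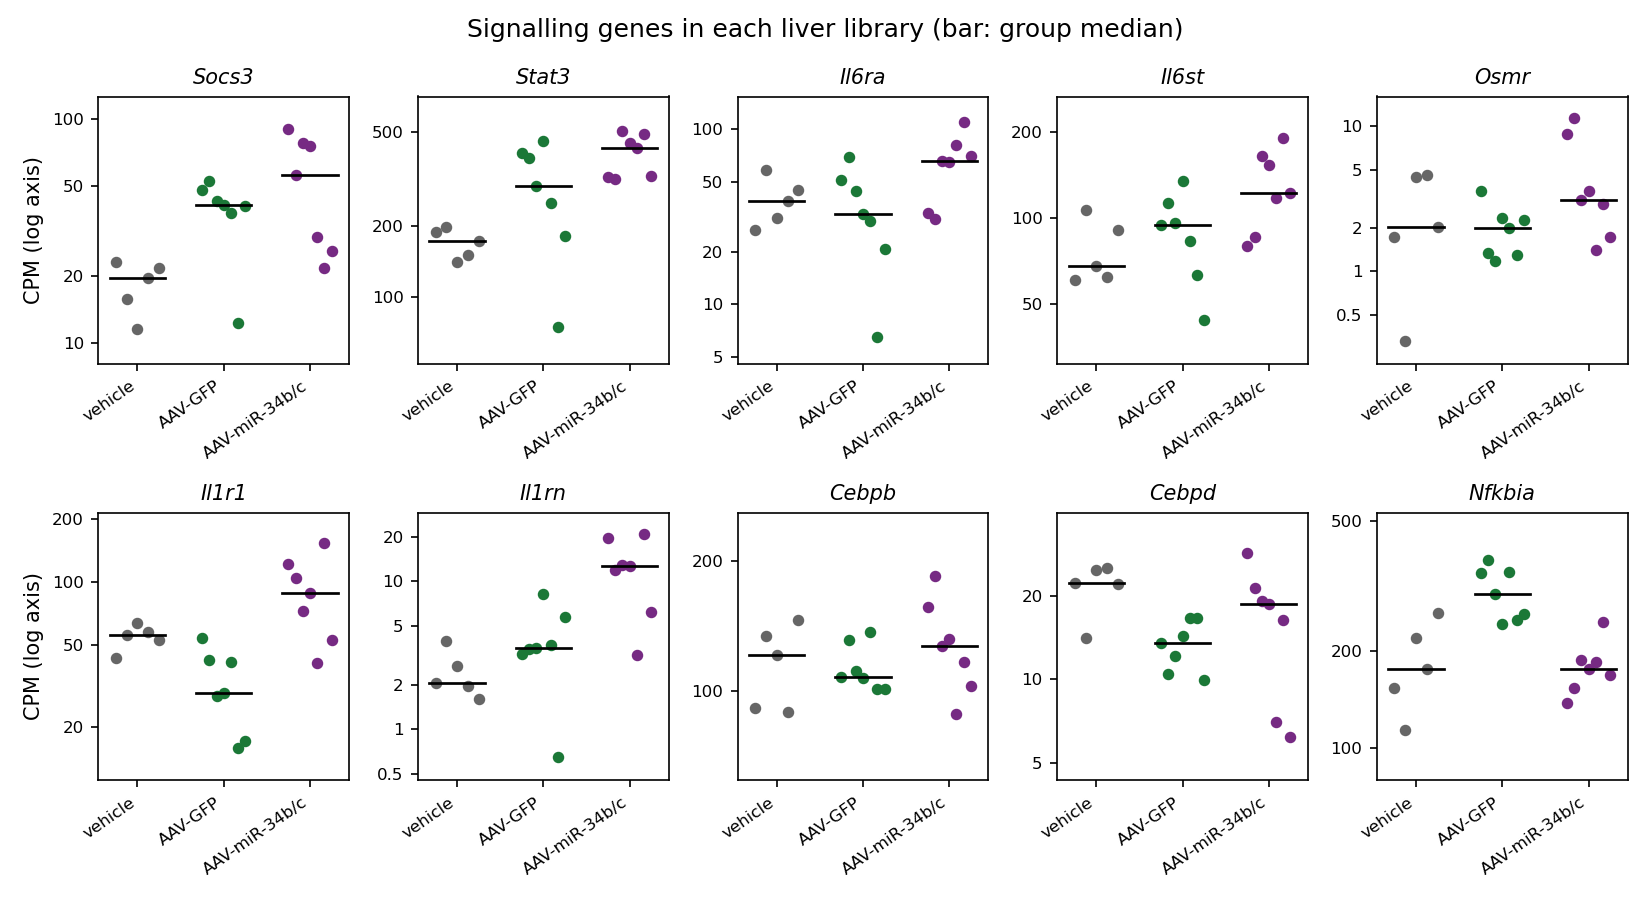
Level of each of the 10 genes in every liver library, in CPM on a log axis, with 1 point per library in order of replicate number and a bar at the group median. *Nfkbia* is high in GFP libraries, with a lowest value of 242 CPM, whereas *Il1r1* and *Il1rn* are high in most miR-34b/c libraries.

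Between the TAA groups, the IL-1 receptor gene *Il1r1* and the IL-1 antagonist gene *Il1rn* rose and the NF-kB inhibitor gene *Nfkbia* fell in miR-34b/c livers. Against vehicle, *Socs3* rose in both TAA groups, *Nfkbia* rose and *Cebpd* fell in GFP livers, and *Stat3*, *Il6st* and *Il1rn* rose in miR-34b/c livers. By count, 2 of the 9 members tested were called higher and 1 lower in GFP livers against vehicle, where 12.7% of all 9522 genes tested were called, 7.54% higher and 5.19% lower. In miR-34b/c livers against vehicle, 4 were called higher, where 21.9% of 9290 genes were called, 12.2% higher and 9.75% lower. In miR-34b/c against GFP livers, 2 were called higher and 1 lower, where 3.36% of 9252 genes were called, 1.95% higher and 1.42% lower. The median log2 fold change of the 9 members was 0.22, 0.74 and 0.45 in these comparisons, beside -0.01, 0.02 and -0.01 over all genes tested. Without the 4 libraries that stood apart, 3 were called higher and 1 lower, 5 higher, and 2 higher and 1 lower, respectively, where 31.1%, 42.6% and 8.25% of all genes tested were called.

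**Figure D2:**
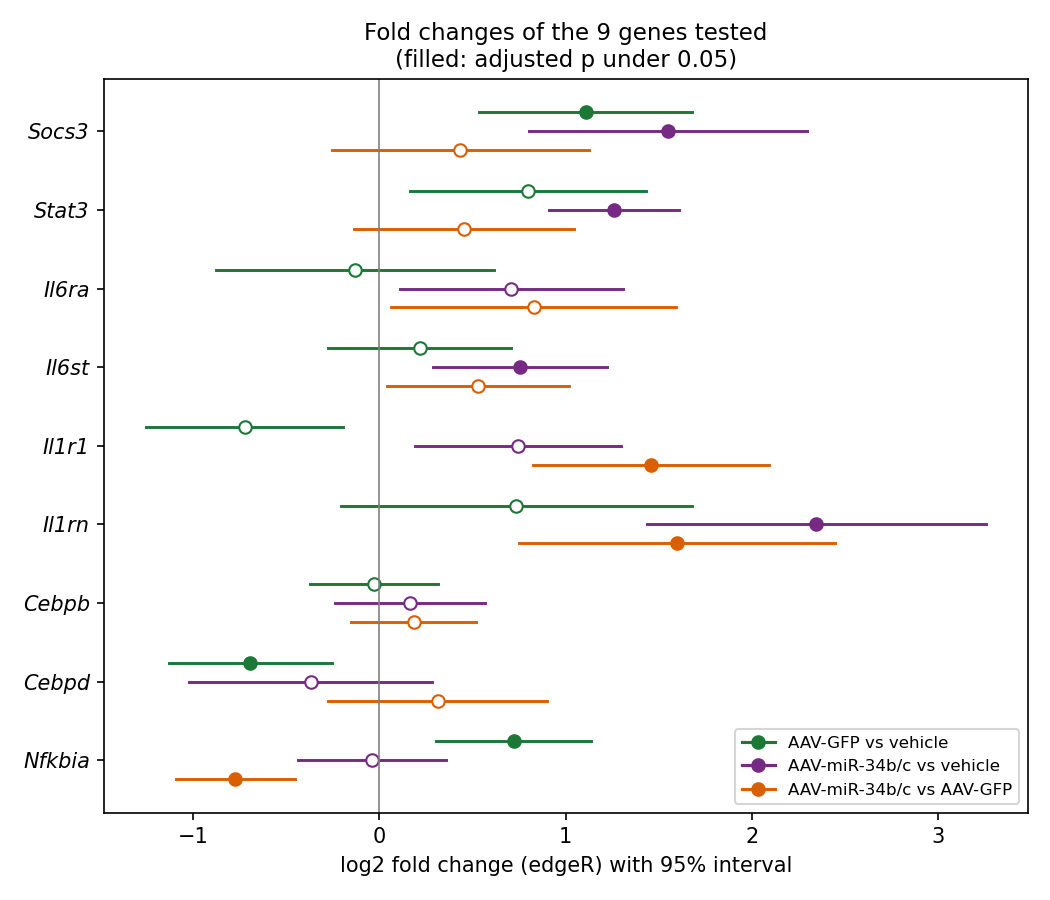
Log2 fold change from edgeR with its 95% interval for the 9 members tested, in 3 comparisons. Filled points passed an adjusted p of 0.05, and between the TAA groups these are *Il1r1* (1.46), *Il1rn* (1.60) and *Nfkbia* (-0.77).

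Of the 15 ligands listed, only *Il1b* and *Il18* passed the filter on low counts in whole liver. *Il6* had 1 count in 1 GFP library and 0 in the other 18 libraries. *Osm*, which encodes oncostatin M, had 0 counts in all 19 libraries, which allows up to 3 counts per library, or 0.628 to 1.33 CPM, for counting error only. *Tnf* reached at most 3 counts and *Il1a* at most 15 counts in any library. *Il1b* was measured in each library, with 4 to 33 counts, and its group medians were 5.86, 5.04 and 6.07 CPM in the order vehicle, GFP, miR-34b/c. Its log2 fold change between the TAA groups, miR-34b/c over GFP, was 0.59 (SE 0.31, edgeR adjusted p = 0.379). *Il18* had 33 to 172 counts per library, and its group medians were 37.8, 22.7 and 19.1 CPM in the same order. *Il18*, a cytokine of the IL-1 family, fell against vehicle in GFP livers (log2 fold change -0.91, SE 0.21, adjusted p = 0.0086) and miR-34b/c livers (-1.09, SE 0.22, adjusted p = 0.00358). These 2 comparisons share the vehicle libraries, here and below.

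The receptor chains *Il6ra*, *Il6st* and *Osmr* had higher means in miR-34b/c livers than in the other groups, and 1 of these differences passed the test, that of *Il6st* against vehicle. *Il6ra* (ENSMUSG00000027947, chr3:89864059-89913196, minus strand, GRCm38) was at 26.4, 58.9, 31.1, 39.1 and 45.1 CPM in the 5 vehicle libraries. It ranged from 6.51 to 70.0 CPM in GFP livers (median 32.7) and from 30.8 to 110 CPM in miR-34b/c livers (median 66.3). The lowest value, from GFP library 6, rests on 20 counts, and the groups overlap. Its log2 fold change was -0.13 (SE 0.36, adjusted p = 0.841) for GFP against vehicle, 0.71 (SE 0.28, adjusted p = 0.0820) for miR-34b/c livers over vehicle and 0.83 (SE 0.37, adjusted p = 0.271) between the TAA groups. Without the 4 libraries that stood apart, *Il6ra* passed the test in miR-34b/c livers against vehicle (0.97, adjusted p = 0.00133) and against GFP (0.77, adjusted p = 0.0344), and the small difference between GFP and vehicle turned to 0.19. Leaving out miR-34b/c library 1 or 2 alone also gave a call against vehicle (adjusted p = 0.0274 and 0.0234), as did limma-voom (adjusted p = 0.00499).

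*Il6st* (ENSMUSG00000021756, chr13:112464070-112510086, plus strand), the gp130 gene, was at 60.7, 107, 67.6, 62.1 and 90.9 CPM in vehicle libraries. GFP livers ranged from 43.9 to 135 CPM (median 94.7) and miR-34b/c livers from 79.7 to 191 CPM (median 122). Of the miR-34b/c libraries, 5 of 7 were above all vehicle libraries and 3 of 7 were above all GFP libraries. *Il6st* rose in miR-34b/c livers against vehicle, by 0.76 on the log2 scale (SE 0.22, adjusted p = 0.0238). This call was lost without vehicle library 1, 3 or 4 or miR-34b/c library 3 (adjusted p up to 0.0716), with the close pairs summed (adjusted p = 0.155) and with normalization by library size only (adjusted p = 0.0680). The log2 fold change was 0.22 (SE 0.24, adjusted p = 0.565) for GFP against vehicle and 0.53 (SE 0.23, adjusted p = 0.269) between the TAA groups.

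*Osmr* (ENSMUSG00000022146, chr15:6813577-6874969, minus strand), the oncostatin M receptor chain, had 1 to 29 counts per library and did not pass the filter on low counts in any comparison. Its level was 1.72, 0.329, 4.45, 4.64 and 2.01 CPM in vehicle libraries, 1.18 to 3.55 CPM in GFP livers (median 1.97) and 1.41 to 11.4 CPM in miR-34b/c livers (median 3.10). The highest values, 8.82 and 11.4 CPM, came from miR-34b/c libraries 1 and 2. An exact two-sided permutation of log2 CPM between the TAA groups gave p = 0.0659, where the smallest p that these groups allow is 0.000583.

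*Stat3* (ENSMUSG00000004040, chr11:100885098-100939540, minus strand), the transcription factor below gp130, was higher in all 7 miR-34b/c livers than in all 5 vehicle livers. The vehicle libraries held 188, 197, 141, 150 and 172 CPM, and miR-34b/c livers ranged from 315 to 508 CPM (median 429). The log2 fold change was 1.26 (SE 0.17, adjusted p = 0.000164), or 2.40-fold, and it passed the test in each alternative that was run. Among all genes tested between these groups, 7.92% did not overlap, 3.92% with the miR-34b/c livers higher. GFP livers ranged from 73.9 to 461 CPM (median 295), with 5 of 7 above all vehicle livers and library 6 below all of them. The log2 fold change for GFP against vehicle was 0.80 (SE 0.30, adjusted p = 0.0863). It was 0.97 with adjusted p = 0.00432 without GFP library 6, and 1.10 with adjusted p = 0.000138 without libraries 6 and 7. It also passed without GFP library 7 alone (adjusted p = 0.0439), with no filter on low counts (adjusted p = 0.0455) and with limma-voom (adjusted p = 0.0185). Between the TAA groups the log2 fold change was 0.45 (SE 0.28, 95% interval -0.14 to 1.04, adjusted p = 0.489). *Stat3* shares its 3′ end with *Stat5a* on the opposite strand, and the strand setting of the counting is not given in the sources used here. The 19 libraries held 18681 counts for *Stat3* and 240 for *Stat5a*.

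*Socs3* (ENSMUSG00000053113, chr11:117966079-117970047, minus strand), the STAT3-induced inhibitor of gp130 signalling whose window held the STAT motif, rose against vehicle in both TAA groups. Vehicle libraries were at 23.0, 15.8, 11.6, 19.5 and 21.7 CPM. GFP livers ranged from 12.4 to 52.8 CPM (median 41.4), and all but library 6 were above all vehicle livers. miR-34b/c livers ranged from 21.6 to 89.9 CPM (median 56.0) and spread most, with 89.9, 56.0, 78.2 and 75.6 CPM in libraries 1 to 4 and 29.6, 21.6 and 25.8 CPM in libraries 5 to 7. The log2 fold change against vehicle was 1.11 (SE 0.27, adjusted p = 0.0129) for GFP and 1.55 (SE 0.35, adjusted p = 0.0066) for miR-34b/c. Both calls were lost with the close pairs summed (adjusted p = 0.0910 and 0.0737). Between the TAA groups the log2 fold change was 0.43 (SE 0.33, 95% interval -0.26 to 1.12, adjusted p = 0.606), and it was 0.02 (adjusted p = 0.982) without the 4 libraries that stood apart.

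*Cebpb* and *Cebpd*, which encode C/EBPβ and C/EBPδ, showed no call between the TAA groups. *Cebpb* (ENSMUSG00000056501, chr2:167688915-167690418, plus strand) ranged from 89.4 to 146 CPM in vehicle livers, from 101 to 137 CPM in GFP livers and from 88.5 to 185 CPM in miR-34b/c livers. Its log2 fold changes were -0.03 for GFP against vehicle, 0.16 for miR-34b/c livers over vehicle and 0.18 between the TAA groups, and the last had a 95% interval of -0.15 to 0.52. These small differences changed sign under other settings, among them normalization by library size only, which gave 0.033, -0.0053 and -0.038. *Cebpd* (ENSMUSG00000071637, chr16:15887286-15891031, plus strand) was at 22.3, 14.2, 24.9, 25.2 and 22.1 CPM in vehicle livers and from 9.92 to 16.7 CPM in GFP livers (median 13.6). It fell in GFP livers against vehicle (log2 fold change -0.69, SE 0.21, adjusted p = 0.0349). The call was lost in 8 of 12 fits that left out 1 library, those without vehicle library 1, 3, 4 or 5 or GFP library 1, 2, 3 or 4, with adjusted p up to 0.107, with no filter on low counts (adjusted p = 0.0515), with all 3 groups in 1 fit (adjusted p = 0.105) and with the close pairs summed (adjusted p = 0.203). miR-34b/c livers ranged from 6.20 to 28.5 CPM (median 18.7) and spanned the values of both other groups, with log2 fold changes of -0.37 (SE 0.31, adjusted p = 0.404) against vehicle and 0.31 (SE 0.28, adjusted p = 0.674) against GFP. Both genes overlap a gene on the opposite strand, *Tmem189* and *Spidr*, respectively, which had 371 and 86 counts in all against 7225 and 1010 for *Cebpb* and *Cebpd*.

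*Il1r1* (ENSMUSG00000026072, chr1:40225080-40317257, plus strand), the signalling receptor of IL-1, was the member whose call between the TAA groups held in each alternative run. It was at 42.9, 55.3, 63.1, 57.2 and 52.3 CPM in vehicle livers. GFP livers held 53.6, 42.4, 28.2, 29.2, 41.0, 15.9 and 17.3 CPM, and miR-34b/c livers held 122, 104, 72.8, 88.0, 40.6, 153 and 52.7 CPM. Of the miR-34b/c livers, 5 of 7 were above all GFP livers, and libraries 5 and 7 lay within the GFP range. *Il1r1* rose by 1.46 on the log2 scale (SE 0.30, adjusted p = 0.00993), a 2.75-fold difference (exact two-sided permutation of log2 CPM, p = 0.00408). Over the 14 fits that left out 1 library the log2 fold change was 1.29 to 1.62, and it was 1.04 (adjusted p = 0.0286) without the 4 libraries that stood apart. Against vehicle, the log2 fold change was -0.72 (SE 0.25, adjusted p = 0.0633) for GFP and 0.74 (SE 0.26, adjusted p = 0.0512) for miR-34b/c. Both passed with no filter on low counts (adjusted p = 0.0424 and 0.0426) and with DESeq2 (adjusted p = 0.0468 and 0.0355), the first also with limma-voom (adjusted p = 0.0337) and without GFP library 1 (adjusted p = 0.0267), and the second with 10 counts required in each library (adjusted p = 0.0438) and without miR-34b/c library 5 or 7 (adjusted p = 0.0169 and 0.0316). Summed levels of 9 stellate cell markers were 384 to 624, 401 to 544 and 271 to 560 CPM in the 3 groups, and 2 of the 7 tested, *Col1a1* and *Col3a1*, were called lower between the TAA groups. Those of 7 endothelial markers were 187 to 239, 174 to 231 and 220 to 286 CPM, and 1 of the 6 tested, *Lyve1*, was called higher. Between the TAA groups, 1.42% of all genes were called lower and 1.95% higher. Summed levels of 5 cholangiocyte markers were 18.2 to 41.1, 52.4 to 93.8 and 49.2 to 118 CPM. The cell types behind the *Il1r1* difference were not tested.

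*Il1rn* (ENSMUSG00000026981, chr2:24336853-24351494, plus strand), the IL-1 receptor antagonist, rose in miR-34b/c livers against both other groups. Vehicle livers were at 2.06, 3.95, 2.67, 1.95 and 1.61 CPM. GFP livers held 3.23, 3.48, 3.53, 8.17, 3.73, 0.651 and 5.76 CPM, and miR-34b/c livers held 19.7, 11.8, 13.0, 12.7, 3.17, 20.7 and 6.20 CPM. In the miR-34b/c group, libraries 5 and 7 lay within the GFP range, as they did for *Il1r1*. The log2 fold change was 2.34 (SE 0.43, adjusted p = 0.00182), or 5.08-fold, against vehicle, and 1.60 (SE 0.41, adjusted p = 0.0340), or 3.03-fold, against GFP. The call against vehicle held in each alternative that tested the gene. The call against GFP was lost in 8 of 14 fits that left out 1 library, those without GFP library 1, 2, 3 or 5 or miR-34b/c library 1, 3, 4 or 6 (adjusted p up to 0.0816), with the close pairs summed (adjusted p = 0.123), with limma-voom (adjusted p = 0.0716) and without the 4 libraries that stood apart (1.32, adjusted p = 0.0521). The values rest on 2 to 99 counts per library.

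Neutrophil markers moved with *Il1rn* in the 2 comparisons that include the miR-34b/c group, which share its 7 libraries. In GFP livers against vehicle, *Il1rn* was at 0.74 on the log2 scale (edgeR adjusted p = 0.285). The median of the 2 neutrophil markers tested there was -0.38, and neither was called. The summed level of 7 neutrophil markers was 16.9 to 80.0 CPM in vehicle livers, 14.7 to 74.3 CPM in GFP livers and 62.7 to 1911 CPM in miR-34b/c livers. All 3 markers that were tested, *S100a8*, *S100a9* and *Retnlg*, rose against GFP, where 1.95% of all genes were called higher. *Ly6g* was at 0 in all vehicle livers, at no more than 3 counts in GFP livers and at 1 to 14 counts in miR-34b/c livers. Within the miR-34b/c group, library 6 had the highest *Il1rn* level with a marker sum of 146 CPM, against 1911 and 1894 CPM in libraries 1 and 2. Libraries 5 and 7, with the lowest *Il1rn* levels of the group, also had its lowest marker sums, 65.9 and 62.7 CPM. Summed levels of 9 macrophage markers were 416 to 808, 350 to 572 and 513 to 799 CPM in the 3 groups. Of the 9, 4 were called lower in GFP livers against vehicle (*Adgre1*, *Clec4f*, *Vsig4* and *Cd5l*), where 5.19% of all genes were called lower. In miR-34b/c livers against vehicle, 1 was called lower (*Adgre1*), where 9.75% of all genes were. Between the TAA groups, 2 were called higher (*Cd5l* and *C1qb*). The part of neutrophils and macrophages in the *Il1rn* difference was not tested, and neither was their part in the other differences between the TAA groups.

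*Nfkbia* (ENSMUSG00000021025, chr12:55489410-55492647, minus strand), the IκBα gene whose window held the NF-kB motif, differed between the TAA groups in the direction opposite to *Il1r1* and *Il1rn*. Vehicle livers were at 153, 114, 219, 175 and 261 CPM. GFP livers held 345, 379, 299, 242, 349, 249 and 258 CPM, and miR-34b/c livers held 138, 153, 187, 175, 184, 245 and 168 CPM. All miR-34b/c livers but library 6 were below all GFP livers. *Nfkbia* rose in GFP livers against vehicle, by 0.72 on the log2 scale (SE 0.20, adjusted p = 0.0225), and fell in miR-34b/c livers against GFP (log2 fold change -0.77, SE 0.15, adjusted p = 0.00653; exact permutation p = 0.00117). In miR-34b/c livers against vehicle the log2 fold change was -0.04 (SE 0.19, 95% interval -0.44 to 0.36, adjusted p = 0.900). With the close pairs summed, the calls against vehicle and between the TAA groups were lost (adjusted p = 0.111 and 0.177). The call of GFP against vehicle was also lost without vehicle library 1 or 4 (adjusted p = 0.0645 and 0.0558).

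Immediate early genes, which are induced within minutes of many stimuli including tissue handling, moved with *Nfkbia* in the 2 comparisons that include the GFP group, which share its 7 libraries and so are not separate observations. The summed level of 9 such genes was 69.9 to 159 CPM in vehicle livers, 263 to 608 CPM in GFP livers and 161 to 278 CPM in miR-34b/c livers. Between GFP and vehicle, 7 of the 8 tested were called higher, and between the TAA groups, 3 of the 7 tested (*Jun*, *Dusp1* and *Nr4a1*) were called lower. In miR-34b/c livers against vehicle, 3 of the 5 tested (*Jun*, *Egr1* and *Btg2*) were called higher. The list median was 1.10 on the log2 scale with no overlap of the summed levels, whereas *Nfkbia* was at -0.04. Over all genes, 7.54% were called higher and 5.19% lower between GFP and vehicle. Between the TAA groups, 1.95% were called higher and 1.42% lower. For miR-34b/c livers against vehicle the shares were 12.2% and 9.75%. These shares also stand beside the clock and glucocorticoid-induced lists below. *Fos*, after *Ephx1*, was among the 3 genes most like *Nfkbia* by Pearson's r of log2 CPM over the 19 libraries. The r of *Fos* was 0.835, and 0.647 after subtraction of group means. The part of the immediate early response in the *Nfkbia* difference was not tested. Clock output genes, which vary with the time of day, summed to 290 to 512, 97.7 to 334 and 93.7 to 454 CPM in the vehicle, GFP and miR-34b/c groups. Genes of this list moved in opposite directions, with 2 of 10 tested called higher (*Arntl* and *Nr1d1*) and 3 lower (*Per3*, *Nr1d2* and *Dbp*) in GFP livers against vehicle, and 1 higher (*Arntl*) and 3 lower (*Per3*, *Per1* and *Nr1d2*) in miR-34b/c livers against vehicle. In miR-34b/c against GFP livers, edgeR called 0 of the 8 tested, where 2 were lower at an unadjusted p under 0.05. The list median there was -0.10 on the log2 scale. The clock list split the miR-34b/c group. Libraries 5 and 7, a close pair that lay within the GFP range for *Il1r1* and *Il1rn*, held 454 and 445 CPM of it. The other 5 held 93.7 to 141 CPM. Of 6 glucocorticoid-induced genes, 2 were called higher (*Zbtb16* and *Klf9*) and 1 lower (*Fkbp5*) in GFP livers against vehicle, with a list median of 0.05 on the log2 scale. Against vehicle, 3 were called higher in miR-34b/c livers (*Zbtb16*, *Lcn2* and *Klf9*) and 1 lower (*Sgk1*), with a median of 0.42, and 2 were called higher (*Fkbp5* and *Lcn2*) between the TAA groups, with a median of 0.01. *Lcn2* is also in the acute phase list, and the other 5 genes summed to 320 to 375, 333 to 708 and 374 to 507 CPM in the vehicle, GFP and miR-34b/c groups. On these 5 genes, GFP libraries 6 and 7, which had the lowest GFP value of 5 and 3 of the 10 signalling genes, held 333 and 365 CPM against 505 to 708 CPM in libraries 1 to 5, and miR-34b/c libraries 5 and 7 lay within the range of the other miR-34b/c libraries. The genes of the clock and glucocorticoid-induced lists were named after their values were seen. The part of sampling time and of glucocorticoid response in any of the differences was not tested.

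**Figure D3:**
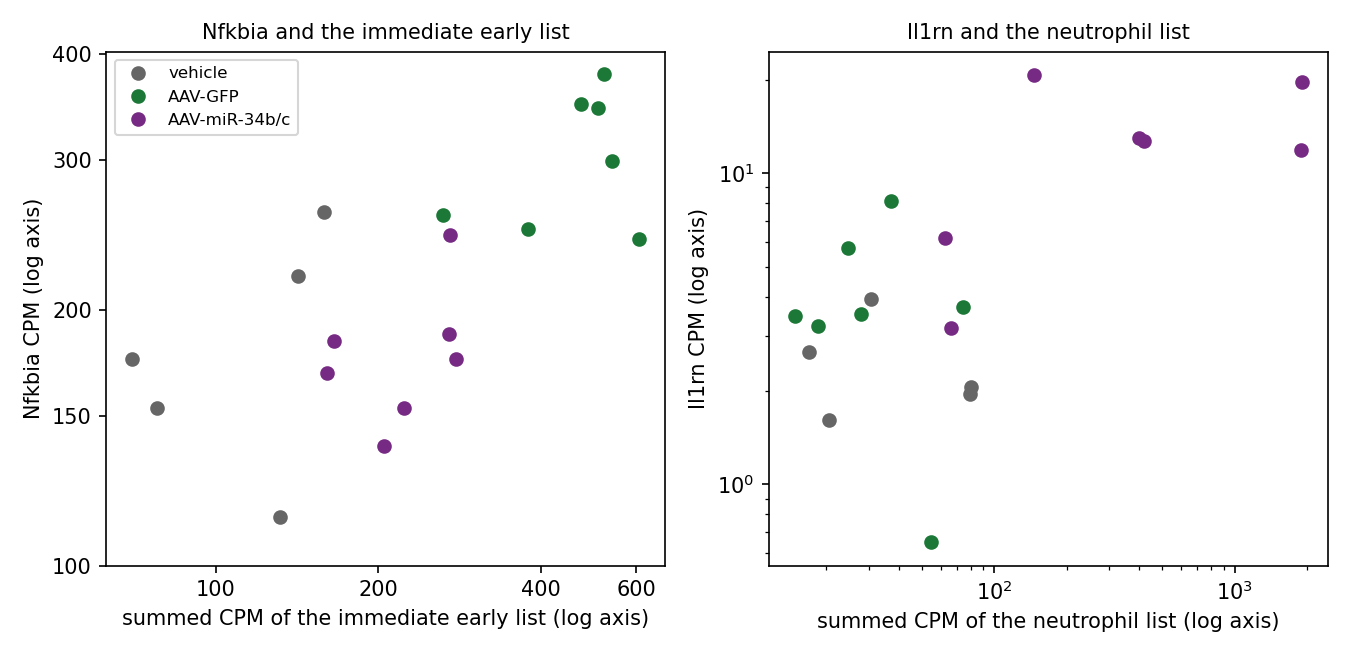
Level of *Nfkbia* against the summed level of 9 immediate early genes, and of *Il1rn* against the summed level of 7 neutrophil markers, in CPM on log axes with 1 point per library. GFP libraries 1 to 6 lie at 377 to 608 CPM of the immediate early list, above all other libraries, and miR-34b/c libraries 1 to 4 and 6 at 146 to 1911 CPM of the neutrophil list, above all other libraries.

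The libraries at the extremes of a group differed between members. GFP library 6 had the lowest value of its group for 5 members, *Socs3*, *Stat3*, *Il6ra*, *Il1r1* and *Il1rn*, and library 7 for 3 others, *Il6st*, *Cebpb* and *Cebpd*. miR-34b/c library 6 had the highest value of its group for *Il6ra*, *Il6st*, *Il1r1*, *Il1rn* and *Nfkbia* and the lowest for *Socs3*. miR-34b/c library 5 had the lowest value of its group for *Osmr*, *Il1r1*, *Il1rn* and *Cebpb*. In vehicle livers, library 2 had the highest value for *Stat3*, *Il6ra*, *Il6st* and *Il1rn* and the lowest for *Osmr*, *Cebpd* and *Nfkbia*. The coefficient of variation of *Stat3* was 14.2% in vehicle, 46.6% in GFP and 20.4% in miR-34b/c livers, and that of *Socs3* was 25.4%, 32.8% and 52.5%.

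**Figure D4:**
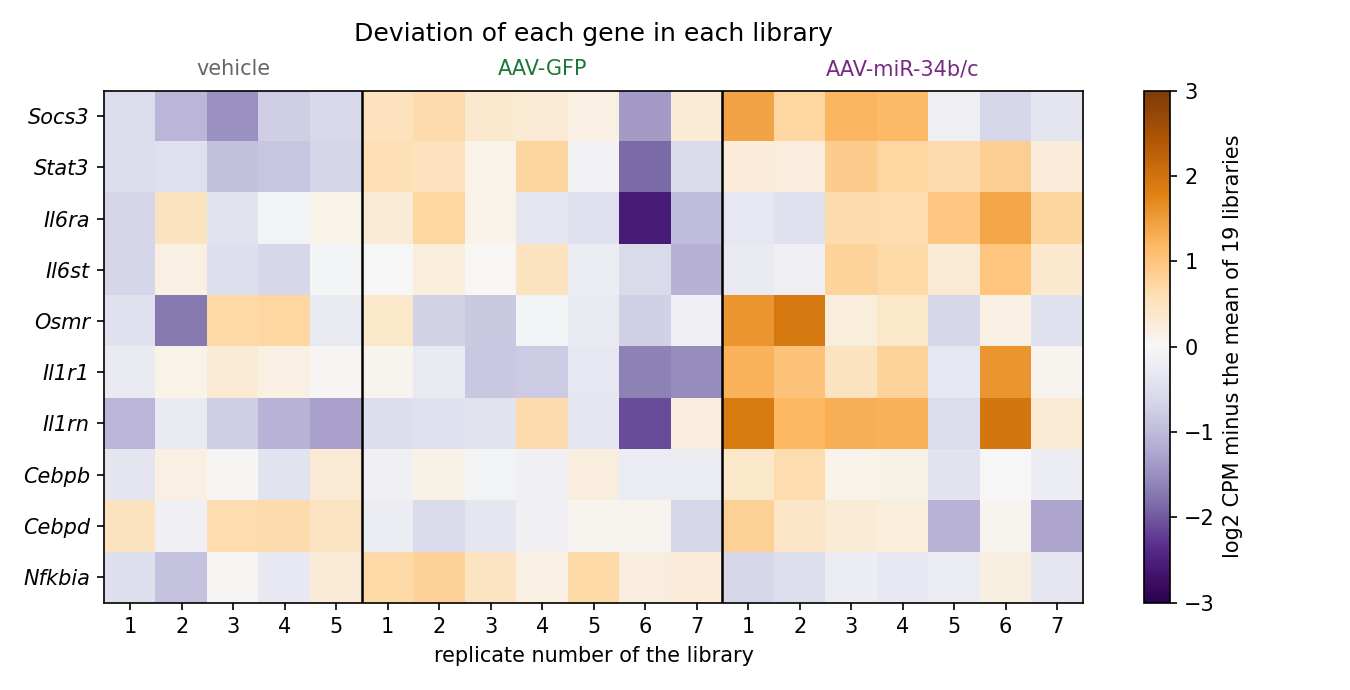
Deviation of each gene in each library from its mean over the 19 libraries, on the log2 CPM scale, with libraries in columns by group and replicate number. GFP library 6 is low for *Socs3*, *Stat3*, *Il6ra*, *Il1r1* and *Il1rn*, and miR-34b/c libraries 1 and 2 are high for *Osmr*.

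Of the other genes of these pathways, 124 were listed in 8 lists, and the acute phase output list held most of the calls between the TAA groups. Between the TAA groups, where 1.95% of all genes were called higher and 1.42% lower, 22 of 94 tested were called higher and 1 lower. These were 19 of the 23 acute phase genes tested, all higher, and 3 genes higher and 1 lower among the 71 genes of the other lists. In miR-34b/c livers against vehicle, 20 of those 71 were called higher and 5 lower. Of the 23 acute phase genes tested there, 14 were called higher, 1 lower and 8 were not called. Over all genes in that comparison, 12.2% were called higher and 9.75% lower. In GFP livers against vehicle, 7 of 72 were called higher and 2 lower, and 5 of 23 acute phase genes lower. The shares over all genes there were 7.54% called higher and 5.19% lower. The summed acute phase level split the vehicle group, with 98721 and 99512 CPM in libraries 1 and 4 against 53135 to 64303 CPM in the other 3, and the miR-34b/c group, with 74060 and 74619 CPM in libraries 5 and 7 against 123202 to 225010 CPM in the other 5. GFP libraries held 40069 to 82115 CPM. Without the 4 libraries that stood apart, 16 of the acute phase genes were called between the TAA groups, all of them higher. Over all genes, 8.25% were called in that fit. Without these libraries, the pathway genes called in GFP livers against vehicle went from 14 to 28, and those over all genes from 1212 to 2880. The median log2 fold change of the acute phase list was -0.50 for GFP and 1.23 for miR-34b/c livers against vehicle and 1.44 between the TAA groups. This list was chosen with its direction in these samples known, so its count is not independent evidence.

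Among other receptors and adaptors, 1 of 9 tested was called higher in GFP livers against vehicle, 3 higher and 2 lower in miR-34b/c livers against vehicle, and 1 higher and 1 lower between the TAA groups. In the same order, 12.7%, 21.9% and 3.36% of all genes tested were called. Without the 4 libraries that stood apart, 1 was called higher and 1 lower, 4 higher and 2 lower, and 1 higher and 1 lower. The shares over all genes were then 31.1%, 42.6% and 8.25%. DESeq2 and limma-voom each called 2 higher and 1 lower between the TAA groups. *Il1rap*, the accessory chain that *Il1r1* needs to signal, fell in miR-34b/c livers, by 0.75 on the log2 scale against GFP (SE 0.19, adjusted p = 0.0344) and by 0.95 against vehicle (SE 0.20, adjusted p = 0.0039). Its level was 27.8 to 34.9 CPM in vehicle, 20.4 to 33.3 CPM in GFP and 11.4 to 25.4 CPM in miR-34b/c livers. The direction of the group differences was thus opposite to that of *Il1r1*, but not library by library. In miR-34b/c library 1, *Il1rap* was at 25.4 CPM and *Il1r1* at 122 CPM. Libraries 5 and 7 held 13.0 and 16.2 CPM of *Il1rap* and 40.6 and 52.7 CPM of *Il1r1*. *Tnfrsf1a*, a receptor of TNF, rose in miR-34b/c livers, by 0.78 against GFP (SE 0.15, adjusted p = 0.00597) and by 0.43 against vehicle (SE 0.14, adjusted p = 0.0336). *Tnfrsf1b*, the other TNF receptor, rose against vehicle by 1.39 in GFP livers and by 1.03 in miR-34b/c livers (adjusted p = 0.000298 and 0.00398). *Lifr*, the receptor chain of leukemia inhibitory factor, fell in miR-34b/c livers against vehicle (log2 fold change -0.86, SE 0.22, adjusted p = 0.0107), and *Il11ra1*, the IL-11 receptor chain, rose (0.65, SE 0.15, adjusted p = 0.00648).

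Of kinases and STAT factors other than *Stat3*, 9 were tested in each comparison. Over the 3 comparisons edgeR made 1 call, in miR-34b/c livers against vehicle, where 21.9% of all genes were called. Limma-voom called 2 there. The fit without the 4 libraries called 2 higher and 1 lower, where 42.6% of all genes were called. *Jak3* rose in miR-34b/c livers against vehicle (1.59, SE 0.48, adjusted p = 0.0258). Its values rest on 2 to 15 counts in vehicle and 7 to 67 in miR-34b/c libraries. The groups overlap, with 0.805 to 5.15 CPM in vehicle and 2.37 to 14.0 CPM in miR-34b/c livers. *Jak1*, a main kinase bound to gp130, had log2 fold changes of 0.01 for GFP livers and 0.25 for miR-34b/c livers against vehicle and 0.23 between the TAA groups (adjusted p = 0.978, 0.22 and 0.492). *Jak2* had -0.05, -0.73 and -0.69 in the same order (adjusted p = 0.929, 0.115 and 0.183). In the IL-1 and NF-kB transduction list, 0 of 14 tested were called by edgeR in GFP livers against vehicle, where 3 had an unadjusted p under 0.05, DESeq2 called 1, limma-voom 2 and the fit without the 4 libraries 3, all higher. In miR-34b/c livers against vehicle, 4 were called higher and 1 lower, against 21.9% of all genes, and 3 higher and 2 lower without the 4 libraries, against 42.6% of all genes. Those named by the rule were *Tab2* (0.72), *Irak4* (0.90) and *Rel* (1.35), called higher, and *Irak2* (-0.68), called lower. *Rel* rests on 2 to 12 counts in vehicle and 7 to 34 in miR-34b/c libraries. *Nfkb1* and *Rela*, the subunits of the common NF-kB dimer, had log2 fold changes of 0.24 and 0.31 in that comparison (adjusted p = 0.648 and 0.261). In the comparison of the TAA groups, edgeR called 0 genes of the JAK and STAT list, where 1 gene was higher and 1 lower at an unadjusted p under 0.05 and DESeq2 and limma-voom called 0. It called 0 of the transduction list, where 1 gene was higher and 2 were lower at an unadjusted p under 0.05 and DESeq2 and limma-voom called 2 each. Without the 4 libraries, 1 gene of the transduction list was called higher and 2 lower, and 0 of the JAK and STAT list.

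Among 16 feedback inhibitors tested, 1 was called higher and 1 lower in GFP livers against vehicle and 4 higher and 1 lower in miR-34b/c livers against vehicle, where 12.7% and 21.9% of all genes were called. With the 4 libraries left out, 6 were called higher and 1 lower in each, where 31.1% and 42.6% of all genes were called. Between the TAA groups, 0 were called by edgeR, where 3 were higher and 1 lower at an unadjusted p under 0.05, DESeq2 called 2, limma-voom 1 and the fit without the 4 libraries 1, all higher. *Bcl3*, an IκB-like protein of the nucleus, rose against vehicle by 1.34 in GFP livers and by 1.67 in miR-34b/c livers (adjusted p = 0.00756 and 0.00948). *Pias3*, an inhibitor of STAT3, fell by 1.13 and by 1.31 in the same comparisons (adjusted p = 0.0051 and 0.00332). The phosphatase genes *Ptpn1* and *Ptpn11* rose in miR-34b/c livers against vehicle, by 1.44 and 0.78 (adjusted p = 0.00134 and 0.00514). *Socs1* had at most 7 counts in any library, and *Socs2* had log2 fold changes of 0.00, -0.57 and -0.58 in the 3 comparisons (adjusted p = 0.997, 0.345 and 0.674). In the C/EBP list of 4 genes tested, *Cebpz* rose in miR-34b/c livers against vehicle (0.52, adjusted p = 0.0166), and *Cebpa*, the C/EBP factor of mature hepatocytes, had 0.38, 0.30 and -0.09 (adjusted p = 0.0638, 0.27 and 0.86). Without the 4 libraries, 1, 2 and 1 genes of the C/EBP list were called in the 3 comparisons, all higher. Over all genes, 31.1%, 42.6% and 8.25% were then called.

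Other targets of STAT3 were called higher against vehicle in both TAA groups, 5 of 18 tested in GFP livers and 7 of 17 in miR-34b/c livers, where 7.54% and 12.2% of all genes were called higher. The list median was 0.17 and 0.33, with 10 of 18 and 12 of 17 log2 fold changes above 0. EdgeR called 0 of them lower in each comparison, where 2 and 3 were lower at an unadjusted p under 0.05. DESeq2 called 6 higher and 1 lower in GFP livers and 7 higher in miR-34b/c livers, and limma-voom 6 higher and 2 lower and 6 higher and 3 lower. Without the 4 libraries that stood apart, 5 were called higher and 1 lower, and 6 higher and 3 lower, where 31.1% and 42.6% of all genes were called. *Junb*, an AP-1 subunit, rose by 1.72 and 1.52, and *Rhou*, a small GTPase, by 1.33 and 1.19. *Il4ra*, the IL-4 receptor chain, rose by 0.64 and 1.19. *Bcl2l1*, an inhibitor of apoptosis, rose in miR-34b/c livers (1.15, adjusted p = 0.00317), and had 0.54 in GFP livers (adjusted p = 0.144). *Junb* is itself an immediate early gene, and the immediate early list moved in the same direction in both comparisons. Between the TAA groups, edgeR called 2 of 17, both higher, where 4 were higher and 2 lower at an unadjusted p under 0.05. Over all genes in that comparison, edgeR called 1.95% higher and 1.42% lower. DESeq2 called 4 higher and 1 lower, limma-voom 3 higher and 1 lower, and the fit without the 4 libraries 3 higher. The 2 called by edgeR were *Fgl1* (2.01, adjusted p = 0.00714) and *Steap4* (2.12, adjusted p = 0.00477), named after their values were seen. Of the acute phase list, *Serpina3n* (2.58), *Itih3* (1.84), *Saa4* (1.60) and *Lbp* (1.43) rose in miR-34b/c livers against GFP, with adjusted p of 3.91e-05, 0.000365, 1.9e-05 and 0.00532. These genes encode proteins that hepatocytes secrete in the acute phase.

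**Figure D5:**
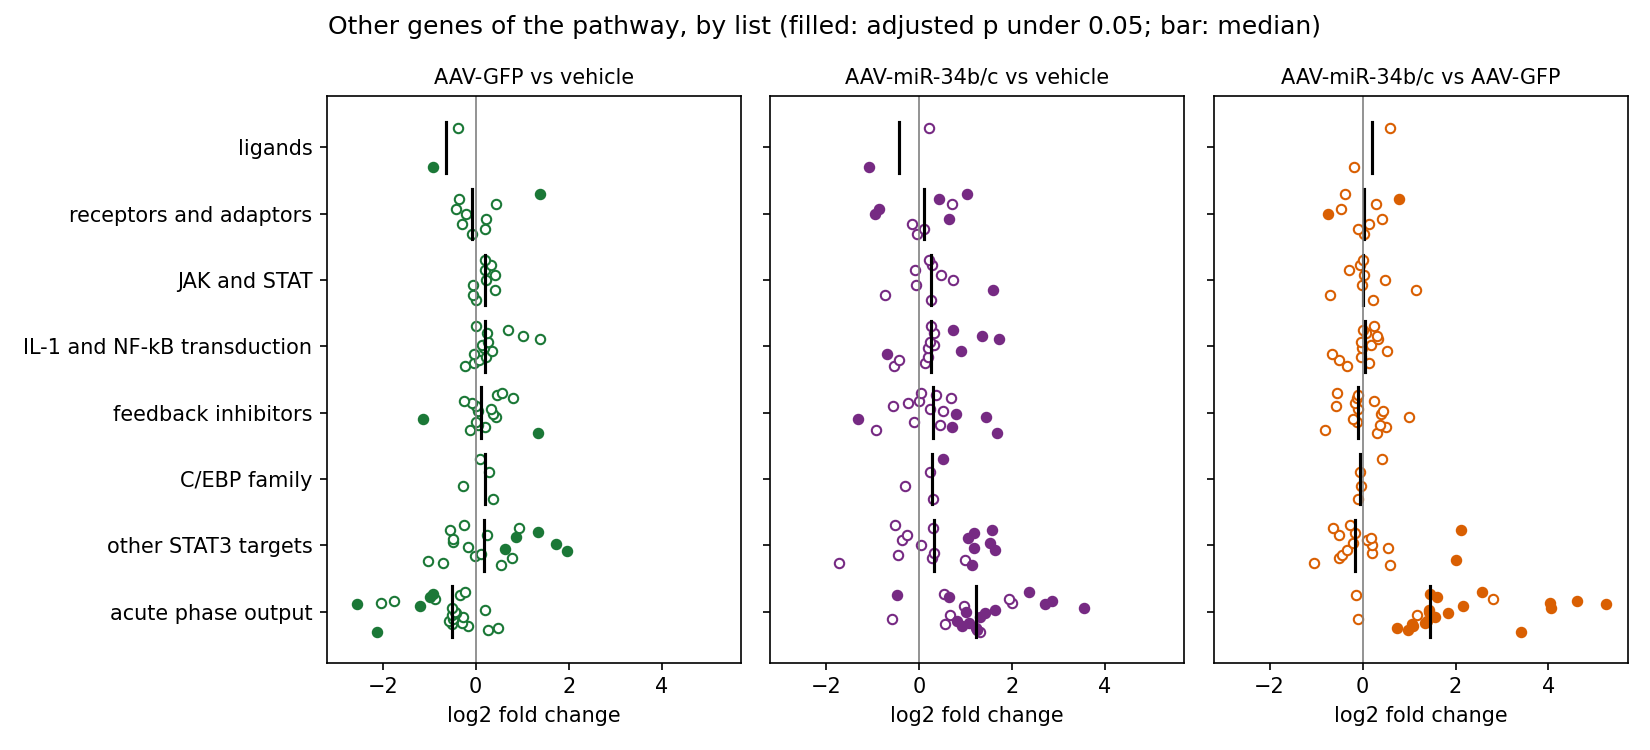
Log2 fold change of each tested gene of the 8 pathway lists, in 3 comparisons, with a bar at the median of the list. Filled points passed an adjusted p of 0.05. The acute phase list lies at a median of 1.44 in miR-34b/c against GFP livers, whereas the medians of the other lists in that comparison lie between -0.15 and 0.20.

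The genes with the most similar pattern to each member were taken from 9694 genes by Pearson's r of log2 CPM over the 19 libraries, which fall into 3 groups, and r after subtraction of group means is given in brackets. For *Il6ra* the most similar gene was *Epb41* with r = 0.943 (0.950), followed by *Arhgef26* and *Slc25a32*. For *Stat3* it was *B4galt1* with r = 0.929 (0.905), followed by *St3gal1* and *Scamp2*. For *Il6st* it was *Tirap* with r = 0.917 (0.910), followed by *Ptpn1* and *Myh9*. For *Socs3* it was *Gas6* with r = 0.886 (0.837), followed by *Vtn* and *Ly6d*. For *Il1rn*, *Il1r1* and *Nfkbia* it was *Ssbp4* with r = 0.878 (0.701), *Mt1* with r = 0.843 (0.590) and *Ephx1* with r = 0.840 (0.530). For *Cebpd* and *Cebpb* it was *Errfi1* with r = 0.821 (0.809) and *Alox5ap* with r = 0.758 (0.776). The r of *Il1rn*, *Il1r1* and *Nfkbia* thus fell most when group means were removed.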

How the data were processed

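3′-end libraries of polyadenylated RNA from 19 livers were sequenced (QuantSeq, single-end reads of 100 bp, from 100 ng of total RNA per the labels). The authors deposited raw counts per gene without normalization, made by the provider's pipeline of quality filtering, trimming, alignment (STAR and mm10 in the submitters' processing notes) and counting per gene. The annotation release, strandedness of the counting and handling of molecular identifiers are not given in the sources used here, so counts can include PCR duplicates and overlapping genes can share reads. Symbols were matched by Ensembl identifier for 30934 of 31053 genes. One list gene, *Ddit3*, had no single row and was left out.

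Counts were tested with edgeR 4.0.16 in R 4.3.3 (TMM, filterByExpr at 10 counts and a total of 15, glmQLFit and glmQLFTest), with the 2 groups compared in each fit, no covariate and Benjamini-Hochberg adjustment over all genes tested, at a threshold of 0.05. SE and 95% intervals belong to the fitted fold changes. Single genes were also compared by exact two-sided permutation of log2 CPM (prior count 2). The procedure was tested on simulated data. The labels name biological replicates without naming animals, so p-values measure the spread between these libraries, which may be technical in part.

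Members, lists, naming rule and alternatives were chosen with earlier results of these data known. Named were all members, up to 4 called genes of a list by smallest adjusted p, a fixed set of ligands, receptors, kinases and factors, and the 3 genes with the highest r for each member. Marker lists of 7 cell types and lists of clock, immediate early and glucocorticoid-induced genes were summed. The alternatives were no filter, a minimum of 10 counts in each library, size factors of DESeq2, library size alone, DESeq2 1.42.0, limma-voom (limma 3.58.1), a joint fit of all 3 groups, a block for replicate number, close pairs summed (coefficient of variation under 0.2), each library left out, and, chosen after seeing the data, the 4 libraries with a median coefficient over 0.3 left out. The limma-voom fits used sample quality weights. The miR-34 genes were not analysed here.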

Additional observations from a re-analysis of the deposited data

Results flagged for a closer look

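In 33 sets of values (the log2 CPM of each member and the total count, in each group), 4 held a library farther from the others than Dixon's test allows at 95%, where chance gives 1.65. *Cebpd* in vehicle library 2 was at 3.89 on the log2 CPM scale, with the next library at 4.51. *Socs3* in AAV-GFP library 6 was at 3.70, with the next at 5.27. *Il1rn* in the same library was at 0.356, with the next at 1.95, and rests on 2 counts. The total count of AAV-GFP library 5 was 4383805, with the next at 3239809.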

How the results depend on the processing

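Of 267 refitted fold changes of members, 224 kept direction and side of the threshold, 15 lost a call, 13 gained one and 15 changed sign. Of 342 that left out 1 library, 305, 22, 7 and 8 did so. No change of sign concerned a called gene. Main calls were 1212 genes in GFP livers against vehicle, 2037 in miR-34b/c livers against vehicle and 311 between the TAA groups. In that order, calls were 2687, 3839 and 813 with limma-voom, 227, 331 and 87 with close pairs summed, and 2880, 3878 and 767 without the 4 libraries that stood apart, and leaving out 1 library gave 689 to 1859, 1267 to 2695 and 209 to 344. For the TAA groups, library size only gave 624 and DESeq2 542. Library size only shifted the median of all genes to 0.05, -0.13 and -0.20 and the share of calls that were higher from 59.2%, 55.5% and 57.9% to 67.4%, 31.1% and 19.1%. Members called were 3, 4 and 3. They were 5 with limma-voom in GFP livers against vehicle. With close pairs summed they were 0 by edgeR (4 at an unadjusted p under 0.05), 2 and 1, and leaving out 1 library gave 1 to 4, 3 to 5 and 2 to 3. Pathway genes called in GFP livers against vehicle were 14, 26 with limma-voom and 28 without the 4 libraries. The cause of these moves was not tested, but close pairs leave fewer samples.

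Replicate numbers did not pair the samples. Deviations of libraries with the same number correlated at -0.0947 to 0.235, -0.256 to 0.296 and -0.313 to 0.224. Of these, 2 of 5, 1 of 5 and 2 of 7 were over 0.1, and 2, 0 and 1 libraries correlated best with their own number. Vehicle libraries are numbered 1 to 5. Against vehicle, libraries 6 and 7 of a TAA group thus stood alone in their block and added nothing to the difference. Those block fits therefore also differ from the main ones in the libraries that inform them. With the replicate number as a block, calls were 3136, 945 and 142, members called between the TAA groups were 1, the calls of *Il6st* in miR-34b/c livers against vehicle (adjusted p = 0.110) and of *Il1rn* and *Nfkbia* between the TAA groups (adjusted p = 0.175 and 0.0640) were not made, that of *Stat3* in GFP livers against vehicle was (adjusted p = 6.22e-05), and the small differences of *Il6ra* and *Cebpb* in GFP livers against vehicle turned to 0.17 and 0.057.

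The following signs changed, all without a call. *Il6ra* in GFP livers against vehicle was 0.19 without the 4 libraries and -0.37 to 0.058 with 1 library left out. *Cebpb* in that comparison was 0.0033 with 10 counts in each library, 0.033 with library size only, 0.028 with limma-voom, 0.041 without the 4 libraries and -0.10 to 0.071 with 1 left out. In miR-34b/c livers against vehicle, *Nfkbia* was 0.10 with close pairs summed, 0.053 without the 4 libraries and -0.17 to 0.11 with 1 left out, and *Cebpb* was -0.0053 with library size only and -0.041 without the 4 libraries. *Cebpb* between the TAA groups was -0.038 and -0.091 under those settings, and *Cebpd* was -0.0036 with limma-voom and -0.014 without the 4 libraries. *Osmr* and, with 10 counts required in each library, *Il1rn* were below the filters. Depth limits *Osmr*, with 1 to 29 counts per library, and *Il1rn*, with 2 to 99.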
